A study of Mus musculus with 4 samples.

Results

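Finer cluster 6 is one of 9 clusters that the deposited annotation gives at its higher clustering resolution for single microglia, the resident macrophages of the brain. It was taken exactly as annotated and held 3126 of 74758 cells (4.18%). Of these, 3124 lay in cluster 1 of the coarser annotation, which has 6 clusters, and made up 20.9% of the 14963 cells there. The annotation gives no cluster names. Cells with high Apoe and Cst7 are commonly called plaque-associated, and finer cluster 3, with 10840 cells, is the other large cluster inside coarser cluster 1, which holds 10034 of its cells. Finer cluster 6 was described against all other cells and against finer cluster 3, and then across the groups of mice.

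The series holds microglia of 20 mice in 5 groups of 4, sampled 1 day after a single intravenous dose of 10 mg/kg. Of WT;TfRmu/hu mice, 4 received ATV:ISO and 4 received ATV:4D9. Of AppSAA;TfRmu/hu mice, 4 each received ATV:ISO, unmodified 4D9 and ATV:4D9. The genotypes are called WT and AppSAA here. All mice carried the apical domain of the human transferrin receptor in place of the mouse sequence, on a C57BL/6J background. AppSAA mice were homozygous for this allele and for a mutant, partly humanized App gene at its own locus, so that no transgene promoter was involved. The methods state no zygosity of the receptor allele for these WT mice. 4D9 is an antibody that activates the microglial receptor TREM2, ATV:4D9 is the same antibody with a site in its Fc that binds the transferrin receptor and carries it over the blood-brain barrier, and ATV:ISO is an isotype control with that site. The isotype arm is labelled ATV-DNP02, and reading it as ATV:ISO rests on its being the remaining arm. AppSAA mice are listed as male and 8 months old. The age given for every pool, each with WT mice, is also 8 months, while the WT line is listed at 2 to 8 months over the whole study. Sex is less clear for the WT mice, whose line is listed as mixed, and the annotation records 1 WT mouse of the ATV:ISO group as female. Each of 4 pools of tagged cells held 1 mouse of every group. Cells were sorted as live CD11b+, with CD45 named in another deposited text, and the dissected tissue is given both as cortex and as cortex with hippocampus.

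Microglia near amyloid plaques take up lipid and debris, lose part of the gene programme of resting microglia, and switch on genes for lipid handling, lysosomes and antigen presentation, a change that depends in part on TREM2 and its ligand APOE. Later members of that programme include Gpnmb, a glycoprotein of the lysosomal and cell surface membrane, and Spp1, the secreted phosphoprotein osteopontin. The interferon response is a separate programme in which the receptor for type I interferon activates STAT and IRF factors, and these bind a short promoter element, the interferon-stimulated response element or ISRE.

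The cells of finer cluster 6 held between 2463 and 59347 unique molecular identifiers (UMIs, counts of captured RNA molecules), with a median of 18655.5, against 11016.5 for all other cells. Of the 3126 cells, 608 had over 25000 UMIs and 0 had under 1000, and doublet removal is not described in the sources used here. A barcode that also occurs in another pool was found for 54 of them. AppSAA mice supplied 3101 of the cells, 58 to 508 each, and the 8 WT mice 25, with at most 11 in a mouse, so that comparisons of genes rest on the 12 AppSAA mice with at least 20 cells. In these mice the summed counts of finer cluster 6 ranged from 1106832 to 10325677 UMIs and those of finer cluster 3 from 3682326 to 25863464. Levels are CPM, a gene's UMIs over all UMIs of the cluster in that mouse on the usual scale, adjusted by trimmed means (TMM) within each comparison, so they are relative to the other genes. Counts were taken over whole genes from one end of the transcript, and levels of different genes are not compared.

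Finer cluster 6 was abundant in AppSAA mice and nearly absent in WT mice. Its share of all cells was 7.56, 9.58, 8.29 and 5.78% in the AppSAA mice given ATV:ISO (mean 7.80% ± 1.59, SD, n = 4; pools 1 to 4 in order here and in later series of values). With 4D9 the shares were 9.10, 8.16, 9.59 and 10.0% (9.22% ± 0.806), and with ATV:4D9 they were 1.28, 3.37, 3.36 and 2.18% (2.55% ± 1.01). Each mouse given ATV:4D9 thus lay below each mouse of the other AppSAA groups, while the ATV:ISO and 4D9 groups overlapped. In WT mice the share was 0, 0.446, 0.0905 and 0.167% with ATV:ISO (0.176% ± 0.193), where 0 of 2193 cells allows a share of up to 0.137%, and 0.0222, 0.0473, 0.101 and 0.0237% with ATV:4D9 (0.0485% ± 0.0368). The counting floor covers counting error only.

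With 4 mice a group, no two-sided exact permutation test can give a p under 0.0286. That value was reached for the difference of ATV:4D9 from ATV:ISO in AppSAA mice (-5.26 percentage points), of ATV:4D9 from 4D9 (-6.68), of AppSAA from WT under ATV:ISO (7.63) and of AppSAA from WT under ATV:4D9 (2.5). After Benjamini-Hochberg adjustment over the family of share tests each stood at an exact permutation p of 0.0571 and missed 0.05, although the groups did not overlap. The share with 4D9 differed from that with ATV:ISO by 1.42 points (exact permutation p = 0.171, adjusted 0.229), which was within the spread between mice. In WT mice ATV:4D9 differed from ATV:ISO by -0.128 points (exact permutation p = 0.257, adjusted 0.281).

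Finer cluster 3 held 27.6% ± 3.37 of cells under ATV:ISO, 27.5% ± 2.28 under 4D9 and 10.2% ± 2.14 under ATV:4D9 (n = 4 AppSAA mice each). Within the sum of the clusters, finer cluster 6 made up 23.9, 23.1, 24.0 and 16.9% under ATV:ISO (22.0% ± 3.42), 25.7, 24.7, 24.3 and 25.8% under 4D9 (25.1% ± 0.746) and 15.2, 21.9, 24.0 and 16.3% under ATV:4D9 (19.3% ± 4.25). The groups given ATV:ISO and ATV:4D9 overlapped on this measure, and their difference of -2.64 points had an exact permutation p of 0.257 (adjusted 0.281). Within pools the ATV:4D9 mouse was the lower in 4 of 4, and the exact sign-flip permutation over pools gave its smallest possible p of 0.125. The 4D9 mice were all above the mice of both other groups, by 3.14 points from ATV:ISO and with ATV:4D9 5.78 points below 4D9 (-5.78), each with the smallest possible exact permutation p of 0.0286 and an adjusted p of 0.0571. With cells of 1000 to 25000 UMIs the mice given 4D9 and ATV:ISO overlapped (3.02 points, exact permutation p = 0.0571, adjusted 0.114). In WT mice the same percentage was 0, 19.6, 7.69 and 16.1 with ATV:ISO. With ATV:4D9 it was 3.23 and 5.0 in the 2 WT mice that had at least 20 cells in the clusters together. The difference of AppSAA from WT under ATV:ISO was 11.1 points (exact permutation p = 0.0571, adjusted 0.098). With cells of 1000 to 25000 UMIs it was 4.25 points, over the 2 WT mice left with at least 20 cells, and the mice overlapped (exact permutation p = 0.267, adjusted 0.291).

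**Figure D1:**
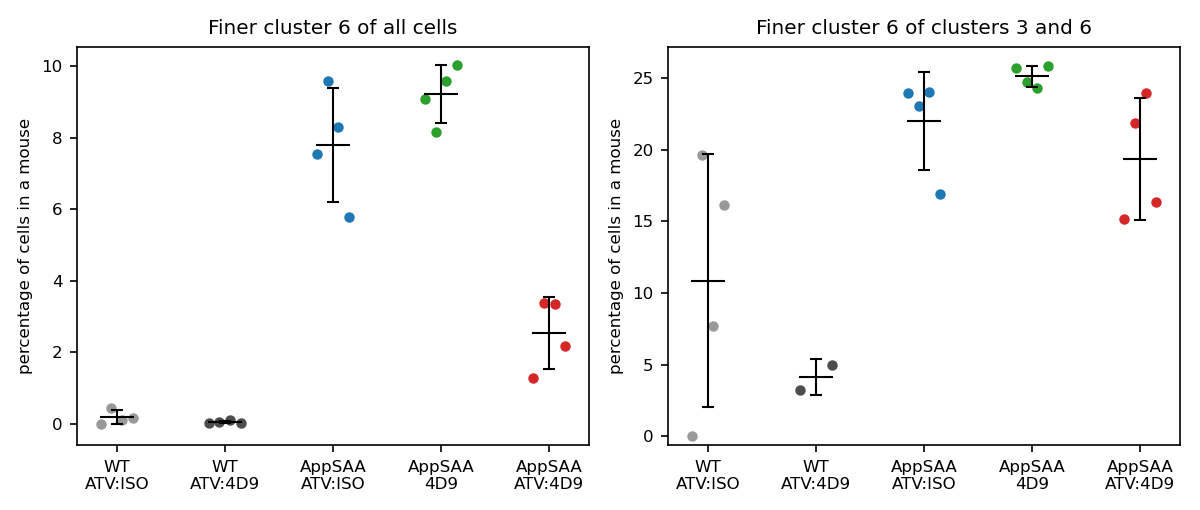
Percentage of a mouse's cells in finer cluster 6, among all cells on the left and among the cells of finer clusters 3 and 6 on the right, for the 5 groups. Points are mice, and the bar and whiskers give the mean and SD. The AppSAA mice given ATV:4D9 lie at 1.28 to 3.37% of all cells, below the other AppSAA mice at 5.78 to 10.0%, and the WT mice lie under 0.446% or at it.

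Cells of finer cluster 6 carried more UMIs than those of finer cluster 3 in every AppSAA mouse. The median UMIs per cell were 18695 ± 999 in finer cluster 6 and 13567 ± 1350 in finer cluster 3 (mean ± SD over 12 mice), a difference of 5127 ± 1089 and higher in 12 of 12 mice (exact sign-flip permutation p = 0.000488, the smallest possible, adjusted 0.000732). Thinned to 5000 UMIs a cell, finer cluster 6 held fewer genes, 1733 ± 50.6 against 1828 ± 35.5, lower in 12 of 12 mice (exact sign-flip permutation, adjusted p = 0.000732). Without thinning it held more, 3796 ± 191 against 3355 ± 233. Thinning left out 15 cells of finer cluster 6 (0.480%) and 340 of finer cluster 3 (3.14%). The mitochondrial share of UMIs was 2.04% ± 0.516 against 1.82% ± 0.389, higher in 11 of 12 mice (exact sign-flip permutation, adjusted p = 0.00195). Over the groups the median UMIs per cell of finer cluster 6 were close, at 18505 ± 925 with ATV:ISO, 18644 ± 1556 with 4D9 and 18935 ± 505 with ATV:4D9. Clusters were made from the genes of the same cells, and these per-cell measures come from the same counts. The p-values on them therefore describe the deposited clusters and support nothing further. Differences of genes between clusters are given below as a description, with no test.

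Apoe (chr7:19696109-19699188, minus strand, GRCm38) encodes the lipid carrier apolipoprotein E, and Cst7 (chr2:150570415-150578944) encodes the cysteine protease inhibitor cystatin F. Each was higher in finer cluster 6 than in every other finer cluster by the median over AppSAA mice, on a common CPM scale for the 9 clusters. Apoe stood at 31004 CPM in finer cluster 6, 11698 in 3 and 11194 in 8, with 955 in finer cluster 4 as the lowest. Cst7 stood at 4363 CPM, against 3062 in finer cluster 8 and 2276 in 3. The mice of finer clusters 6 (3564 to 4887 CPM) and 8 (1377 to 3788 CPM) overlapped for Cst7, while Apoe overlapped with no other cluster. Gpnmb was at 770 CPM in finer cluster 6 and between 2.87 and 19.9 CPM in the other clusters, and Spp1 at 6463 CPM against 19.9 to 142. At the other end, P2ry12, the ADP receptor by which resting microglia sense nucleotides, had its lowest median in finer cluster 6 with 359 CPM, close to 433 in 8 and under 937 in 3 and 2801 in 0. The mice of finer cluster 6 overlapped with those of finer clusters 1, 4, 5, 7 and 8 for P2ry12. Tmem119, a membrane protein used as a marker of microglia, was at 133 CPM, against 204 in finer cluster 8, where the mice overlapped, 397 in 3 and 1371 in 0. The annotation gives the cluster no cell type name, and since the cells were clustered on their expression, these levels do not test a name.

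**Figure D2:**
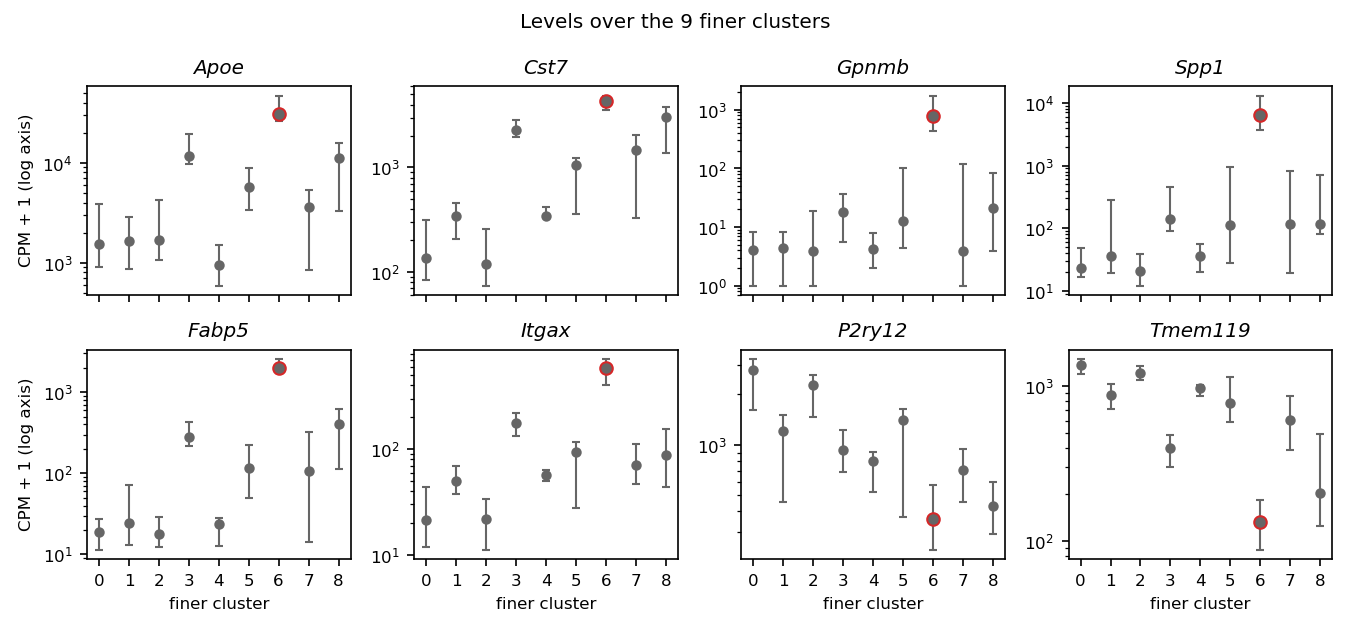
Level of 8 genes in each of the 9 finer clusters, as CPM + 1 on a log axis; points are medians and whiskers the range over AppSAA mice with at least 20 cells, 12 in each cluster and 4 in finer cluster 4. Finer cluster 6, in red, is highest for Apoe, Cst7, Gpnmb, Spp1, Fabp5 and Itgax and lowest for P2ry12 and Tmem119.

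Against all other cells, a gene was called where it differed at least 2-fold and in the same direction in all 12 mice. Of 12013 genes measured, 591 (4.92%) were called higher in finer cluster 6 and 531 (4.42%) lower, and the median log2 fold change of all genes was -0.06. Among genes with a mean of at least 50 CPM the highest was Gpnmb (chr6:49036546-49070929), with a log2 fold change of 6.89 ± 0.25 (SE), or 119-fold. Next came Atp6v0d2, a subunit of the proton pump of lysosomes, at 6.49 ± 0.21, and Spp1 (chr5:104435118-104441050) at 6.42 ± 0.19, or 85.8-fold. Apoc4, Ahnak2, Colec12, Dkk2, Mamdc2, Fabp5, Postn, Hpse and Cxcr4 completed the 12 highest, from 5.39 for Apoc4 to 3.76 for the chemokine receptor gene Cxcr4. Apoe was higher by 2.99 ± 0.17, with 603 UMIs a cell against 65.6 in the other cells. Cst7 was higher by 2.41 ± 0.10. The other plaque-associated genes used as markers, Trem2 (1.29), Tyrobp (1.37), Clec7a (1.70), Axl (1.51), Cd63 (1.70), Lpl (1.88) and Itgax, were also called, and Cd9 (0.81) was not. In the other direction stood Top2a, a topoisomerase of dividing cells (-3.14 ± 0.26), the lens crystallin gene Crybb1 (-2.86), Ecscr, Camk2n1, Grap, Rtn1, the adhesion receptor gene Adgrg1 (-2.37), Tmem119 (-2.33 ± 0.08), Lrba and Ms4a6b (-2.20). Cxcl11 (-2.90 ± 0.47) and Ccl12 (-2.04 ± 0.40), both chemokines, were lower in each mouse, but their values in finer cluster 6 and in the other cells overlapped between mice.

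Of the lists of genes, 20 of 25 core plaque-associated genes and 17 of 20 later ones were called higher, with medians of 1.51 and 2.81 on the log2 scale, and 1 later gene, Gpr84 (-1.13), was called lower. Lipid and cholesterol efflux genes followed with 13 of 23 higher and 0 lower (median 1.28), class II antigen presentation with 4 of 10 (1.47), lysosomal genes with 13 of 34 (0.82) and glycolysis with 8 of 19 (0.84). Of 33 cell cycle genes 21 were lower and 0 higher (median -2.10), and of 20 homeostatic genes 7 were lower and 0 higher (-0.71). Among all genes, 4.92% were called higher and 4.42% lower. The other cells include finer clusters 7 and 4, where Top2a had medians of 819 and 206 CPM against 3.30 in finer cluster 6 and 3.94 in finer cluster 3.

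Finer cluster 3 is the closer comparison. Of 10792 genes, 222 (2.06%) were called higher in finer cluster 6 and 105 (0.973%) lower, with a median log2 fold change of -0.02 over all genes. With each cell thinned to 5000 UMIs, fewer genes could be measured, and of these 8889 genes 133 were called higher and 58 lower. Differences of 8-fold or more were found for 22 of the genes called higher and 0 of those called lower. Gpnmb had the largest difference among the named genes. It ranged from 430 to 1928 CPM in finer cluster 6 (median 812) and from 4.51 to 34.8 CPM in finer cluster 3 (median 16.9), with no overlap, and the log2 fold change was 5.72 ± 0.08, or 52.8-fold. In the cells themselves this came to 14.8 UMIs a cell in finer cluster 6 and 0.252 in 3. Spp1 ranged from 3661 to 15379 CPM (median 6867) against 79.7 to 457 CPM (median 130), a log2 fold change of 5.39 ± 0.07, or 41.9-fold, and 115 UMIs a cell against 2.38. Both differences were nearly as large with every cell thinned to 5000 UMIs, at 5.60 and 5.27. Atp6v0d2 (chr4:19876841-19922605, minus strand) ranged from 56.5 to 131 CPM against 0.255 to 4.1 CPM, a log2 fold change of 5.21 ± 0.07.

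The next genes by size of difference had various functions. Apoc4, another apolipoprotein, ranged from 16 to 104 CPM in finer cluster 6 and from 1.40 to 6.56 CPM in finer cluster 3 (log2 fold change 4.18 ± 0.11). Postn, the matrix protein periostin, ranged from 14.8 to 116 CPM against 2.81 to 7.62 CPM (3.77 ± 0.10). Fabp5, a fatty acid binding protein, ranged from 1711 to 2793 CPM against 209 to 409 CPM (2.97 ± 0.03). All 3 were separated between the clusters in every mouse. Lgals3, the sugar-binding protein galectin-3, was at a median of 429 CPM against 48.6 CPM (3.06 ± 0.05), and Vim, the intermediate filament vimentin, at 193 CPM against 25.5 CPM (2.80 ± 0.04). Ahnak2 (3.55), Colec12, a scavenger receptor (3.51), the Wnt inhibitor gene Dkk2 (2.99) and Mamdc2 (2.92) completed the 12 highest.

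Apoe and Cst7 themselves were higher in finer cluster 6 without overlap, but by less. Apoe ranged from 25948 to 51768 CPM (median 32599) against 9409 to 18589 CPM (median 11177), a log2 fold change of 1.53 ± 0.03, with 603 UMIs a cell against 179. Cst7 ranged from 3510 to 5295 CPM (median 4483) against 1764 to 2749 CPM (median 2133), a log2 fold change of 1.06 ± 0.03. The tetraspanin gene Cd63 passed the 2-fold limit in the same direction, with 1.06, and Itgax, the integrin CD11c, with 1.95. Just under the limit lay Lpl, lipoprotein lipase, with 0.99 and higher in 12 of 12 mice. Trem2 (0.61), its adaptor Tyrobp (0.59), Axl (0.57), Clec7a (0.52) and Cd9 (0.46) differed by less than 2-fold, although Trem2 and Tyrobp did not overlap between the clusters.

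The lower genes in finer cluster 6 included several markers of resting microglia. Adgrg1 ranged from 19.0 to 32.8 CPM against 76.4 to 106 CPM in finer cluster 3 (log2 fold change -1.74 ± 0.04). Tmem119 ranged from 95.9 to 184 CPM against 290 to 434 CPM (-1.37 ± 0.04), with UMIs a cell of 6.0 in finer cluster 3 and 2.7 in 6. P2ry12 ranged from 279 to 567 CPM against 681 to 1116 CPM (-1.17 ± 0.03), and 8.11 UMIs a cell against 15.4. These genes were separated between the clusters and lower per cell too, although cells of finer cluster 6 held more UMIs. Crybb1 (-1.61), the fructose transporter gene Slc2a5 (-1.46), Ecscr (-1.44), the sialic acid receptor gene Siglech (-1.31), Rapgef5 (-1.29), Col27a1 (-1.16) and Selplg (-1.13) were also among the 12 lowest, each without overlap between the clusters. Not every gene of resting microglia was called. The log2 fold change was -0.59 for the growth factor receptor gene Csf1r, -0.56 for the fractalkine receptor gene Cx3cr1 and -0.92 for Sall1, a transcription factor of microglial identity.

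**Figure D3:**
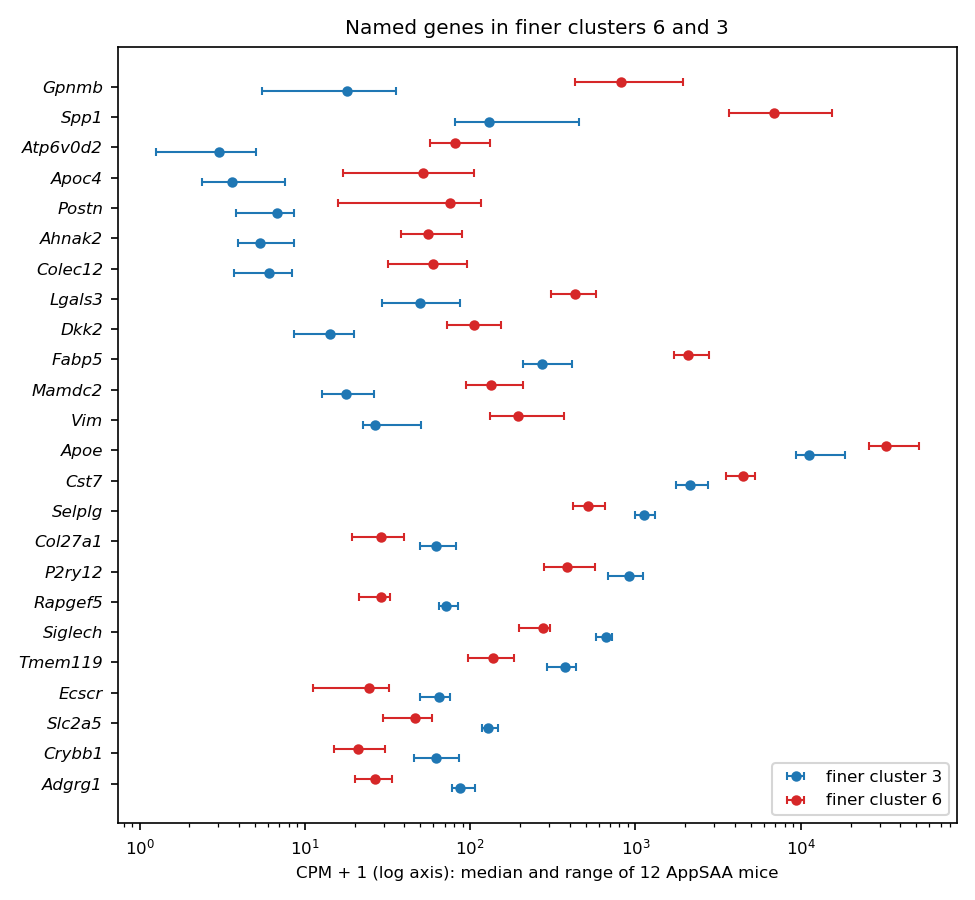
CPM + 1 on a log axis of genes named for finer cluster 6 against finer cluster 3; points are medians and whiskers the range over 12 AppSAA mice, red for finer cluster 6 and blue for finer cluster 3. Gpnmb, at a median of 812 against 16.9 CPM, and Spp1, at 6867 against 130, stand farthest apart together with Atp6v0d2, and Adgrg1, Tmem119 and P2ry12 lie to the left of their finer cluster 3 values.

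The lists set the later plaque-associated genes apart from the core ones in size. Of 20 later genes, 14 were called higher than in finer cluster 3 and 0 lower (median log2 fold change 2.02), and of 25 core genes 5 were called higher (Apoe, Cst7, Cd63, Itgax and the inhibitory receptor gene Lilrb4a, the last at 1.44) and 0 lower (median 0.69). The corresponding median of all genes was -0.02, with 2.06% of them called higher and 0.973% lower. Many of the list members are established markers of such cells and were known to be high here, so these counts describe the cluster and do not test its name. Of 22 lipid and cholesterol efflux genes, 7 were higher, namely the apolipoproteins Apoe, Apoc1, Apoc2 and Apoc4, Fabp5, the cholesterol hydroxylase Ch25h and the phospholipid transfer protein Pltp, and 0 were lower (median 0.76). Of 10 class II antigen presentation genes, 4 were higher, H2-Aa (2.11), H2-Eb1 (1.96), H2-Ab1 (1.66) and the invariant chain Cd74, and 0 lower (median 0.84). H2-Aa ranged from 529 to 1569 CPM in finer cluster 6 and from 106 to 423 CPM in finer cluster 3. Of 20 homeostatic genes, 5 were lower (P2ry12, Tmem119, Siglech, Selplg and Slc2a5) and 0 higher (median -0.63).

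Few genes of the remaining lists were called, beside 2.06% of all genes called higher and 0.973% called lower. Of 34 lysosomal genes, Atp6v0d2 was the 1 called (median 0.41). No gene was called among 18 of glycolysis (median 0.54), 21 of interferon (0.27), 19 of cholesterol synthesis (0.27), 67 nuclear genes of oxidative phosphorylation (0.29) and 21 of the cell cycle (-0.04). Of 15 chemokine genes, Cxcl14 (2.06) and Cxcl2 (1.04) were higher and 1 was lower. Of 16 genes of TNF and NF-kB signalling 0 were called, with the cytokine genes Il1b at -0.93 and Il1a at -0.91 below the limit.

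The lists of markers of other cell types were summed for each mouse. Border macrophage markers added up to 29.5 to 140 CPM in finer cluster 6 (median 59.9) and to 19.3 to 39.5 CPM in finer cluster 3, and Pf4 (median 25.0 CPM) and Ms4a7 (22.0 CPM) gave most of the sum. Both were called higher than in finer cluster 3 (log2 fold change 1.36 and 2.54), 2 of the 5 of these markers tested there, and against all other cells 4 of 8 were, with Clec4n and Folr2. Folr2 had a median of 5.31 CPM against 4.54 in finer cluster 3 and Mrc1 one of 2.91 against 3.37, with up to 9.78 CPM in a mouse, while Lyve1 (0.23) and Cd163 (0.07) had medians near 0. Monocyte markers added up to 20.6 to 80.8 CPM against 8.76 to 17.6 CPM, most of it Fn1, fibronectin, with a median of 21.9 CPM against 4.59 CPM. Other monocyte markers had low medians, such as Ccr2 (2.25 CPM) and Ly6c2 (0.07 CPM), but Ly6c2 reached 12.5, Chil3 14.1 and Ms4a4c 10.6 CPM in single mice. Endothelial markers reached 867 to 1117 CPM against 656 to 863 CPM, most of it Bsg and Flt1, and Cldn5 was at 0.09 and Ly6c1 at 0 CPM. Astrocyte markers lay between 34.3 and 64.5 CPM, oligodendrocyte markers between 68.7 and 91.2, neutrophil markers between 89.4 and 181 (163 to 239 in finer cluster 3), B cell markers between 114 and 167, dendritic cell markers between 1.63 and 5.42, neuronal markers between 0 and 1.85 and T and NK cell markers between 0 and 1.24 CPM. Most of the neutrophil sum was Csf3r, with a median of 128 CPM against 190 in finer cluster 3. Most of the B cell sum was Ighm, with 118 against 219 CPM. Of the neutrophil markers, S100a8 went the other way, with a median of 11.0 against 4.52 CPM, and S100a9 was at 4.96 against 5.65 CPM.

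Within finer cluster 6, genes of the interferon response and some of lipid metabolism differed between ATV:4D9 and ATV:ISO. The cluster held 392 cells with ATV:4D9 and 1451 with ATV:ISO, assigned by their expression after treatment. Whether different cells entered it in the groups was not tested. Of 10608 genes tested with edgeR's quasi-likelihood test and Benjamini-Hochberg adjustment over all of them, 121 (1.14%) rose and 47 (0.443%) fell in AppSAA mice given ATV:4D9 against ATV:ISO at an adjusted p of 0.05. The groups did not overlap for 161 of these 168 genes, and 58 rose and 10 fell at least 2-fold. Non-overlap largely follows from passing the test with 4 mice a group, so such counts, here and against 4D9, add no support. The largest rises and falls named below were chosen among genes without overlap between the compared groups, so their separation adds none either. With the pool as a block, which the correlation of mice within pools called for, 306 genes rose and 168 fell, and all 168 genes called without the block remained. Against 4D9, 114 genes (1.07%) rose and 31 (0.292%) fell, 141 of the 145 without overlap, and 254 rose and 130 fell with the pool block. The 2 comparisons share the ATV:4D9 mice, so they are not independent of each other. For 4D9 against ATV:ISO, 0 genes rose (0%) and 0 fell (0%), with 113 at an unadjusted p under 0.05 by edgeR. DESeq2 and limma-voom also called 0, with 56 and 139 genes at that unadjusted p, and the pool block 0 with 325. The mouse of pool 1 given ATV:4D9 had the fewest cells of finer cluster 6, 58, and the highest level of most interferon genes named here. Removing single mice moved the counts against ATV:ISO to as few as 79 risen genes, without the ATV:ISO mouse of pool 2, and 23 fallen genes, without the ATV:4D9 mouse of pool 3. Fallen genes numbered 29 without the ATV:ISO mouse of pool 2, 30 without the ATV:4D9 mouse of pool 4, 31 without that of pool 2 and, against 4D9, 19 without that of pool 2 or of pool 3.

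The 3 promoters below are shown because their genes are among the largest rises and because they hold the core of the ISRE. Each gives 170 bases that end at the base before the RefSeq start, on the gene's strand in GRCm38.p6, with matches to the ISRE core on either strand in capitals. The core was searched as GAAA, any 2 bases, GAAA.
Isg15, chr4:156200819-156200988, minus strand: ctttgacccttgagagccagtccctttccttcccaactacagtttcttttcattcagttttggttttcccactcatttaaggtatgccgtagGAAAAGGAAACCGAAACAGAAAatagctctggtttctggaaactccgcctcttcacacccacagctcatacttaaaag
Ifit3, chr19:34583359-34583528, plus strand: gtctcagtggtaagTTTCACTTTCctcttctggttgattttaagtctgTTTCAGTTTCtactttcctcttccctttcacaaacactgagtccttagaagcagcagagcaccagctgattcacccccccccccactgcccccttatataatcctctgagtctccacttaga
Ifi207, chr1:173741810-173741979, minus strand: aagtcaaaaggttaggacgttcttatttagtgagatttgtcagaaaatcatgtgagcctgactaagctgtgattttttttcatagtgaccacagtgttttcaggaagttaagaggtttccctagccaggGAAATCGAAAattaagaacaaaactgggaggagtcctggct
The Isg15 promoter holds 3 overlapping matches that begin 78, 72 and 66 bases before the start (-78, -72 and -66). The Ifit3 promoter holds 2 apart from each other, at -156 and -122, and that of Ifi207 holds 1 at -41. Of the 10 named genes that rose with ATV:4D9 against ATV:ISO, 7 matched a promoter table of 300 bases around each start, with 8 promoters, and 4 of these (50%) held the core (Ifi207, Ifit3, Ifitm3 and Isg15). Of the named genes that fell, 8 of 10 matched with 9 promoters, of which 0 held it. Of all 32851 promoters, 3.44% held it. This search was added after the risen genes were known, and a match of letters is not a measured binding site.

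Isg15 (chr4:156199424-156200818), a ubiquitin-like protein attached to others during the interferon response, stood at 35.9, 26.5, 30.3 and 23.5 CPM with ATV:ISO and at 34.8, 28.2, 23.5 and 24.0 CPM with 4D9. With ATV:4D9 it was at 255, 132, 132 and 94.3 CPM. Each ATV:4D9 mouse was above each other mouse, and the rise was 2.36 ± 0.22 on the log2 scale against ATV:ISO (adjusted p = 5.02e-06) and 2.44 against 4D9 (adjusted p = 2.41e-06). Ifit3 (chr19:34583531-34588731), which binds in a complex that recognises viral RNA, was at 17.4, 5.92, 13.4 and 9.65 CPM with ATV:ISO, at 16.2, 6.14, 10.4 and 11.7 CPM with 4D9 and at 118, 59.1, 82.1 and 46.8 CPM with ATV:4D9. Its rise of 2.67 ± 0.30 (adjusted p = 2.54e-05) was the largest of the named genes and was 2.73 against 4D9 (adjusted p = 1.88e-05). Irf7, the factor that amplifies interferon production, was at 17.6, 7.7, 8.7 and 8.47 CPM with ATV:ISO and at 105, 58.3, 35.3 and 26.2 CPM with ATV:4D9, again without overlap (2.36 ± 0.34, adjusted p = 0.000411). Ifitm3, a membrane protein that blocks viral entry, was at 146, 113, 120 and 96.4 CPM with ATV:ISO, at 145, 94.4, 86.6 and 101 CPM with 4D9 and at 643, 500, 379 and 286 CPM with ATV:4D9 (1.92 ± 0.21, adjusted p = 1.8e-05).

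The other named risen genes were Zbp1, a sensor of nucleic acid (2.06 ± 0.21), the receptor chaperone gene Rtp4 (2.03), Oasl2 (1.96 ± 0.14), Ifit2 (1.96), and the nucleic acid binding genes Ifi204 (1.68) and Ifi207 (1.51), with adjusted p from 1.16e-05 for Zbp1 to 2.35e-07 for Oasl2. Zbp1 was at 10.3 to 14.8 CPM with ATV:ISO, 9.57 to 11.9 with 4D9 and 34.3 to 90.7 with ATV:4D9. Of 21 interferon genes listed, 20 rose and 0 fell against ATV:ISO, where 1.14% of all genes rose. Their median log2 fold change was 1.68 beside 0.00 for all genes. Against 4D9, where 1.07% of all genes rose, 20 rose and 0 fell (median 1.82). Without the ATV:4D9 mouse of pool 1 the counts of risen genes were 20 and 19. The remaining member was the chemokine gene Cxcl10, with a log2 fold change of 0.77 and an adjusted p of 0.583 against ATV:ISO. Its values were 75.0, 33.9, 67.9 and 94.5 CPM with ATV:ISO and 204, 30.6, 97.5 and 148 CPM with ATV:4D9, which overlapped, and it passed with the pool block. Border macrophage markers summed to 69.2 to 140 CPM in finer cluster 6 with ATV:4D9, 29.5 to 75.8 with ATV:ISO and 38.6 to 62.0 with 4D9, and their part in these results was not tested. Of these markers, Ms4a7 rose by 1.37 (adjusted p = 0.0355), a call lost with DESeq2 (adjusted p = 0.0575), with cells of 1000 to 25000 UMIs (0.0945) and without the ATV:4D9 mouse of pool 1 or 4 or the ATV:ISO mouse of pool 2, 3 or 4 (up to 0.171). Monocyte markers summed to 30.5 to 75.9 CPM with ATV:4D9, 20.6 to 80.8 with ATV:ISO and 23.4 to 34.4 with 4D9, and their part was not tested either. Of the 3 of these markers tested, Ms4a4c rose, by 1.54 against ATV:ISO (adjusted p = 0.0155) and by 1.81 against 4D9 (adjusted p = 0.00581 by edgeR). The first of these calls was lost without the ATV:4D9 mouse of pool 1 (adjusted p = 0.0546) or pool 2 (0.15) and without the ATV:ISO mouse of pool 3 (0.0545). Over AppSAA mice of all antibody groups, Ms4a4c had a median of 2.98 CPM in finer cluster 6, 2.95 in finer cluster 3 and 4.79 in all other cells. With the pool block and all mice, edgeR's adjusted p against ATV:ISO were 0.00412 for Ms4a4c and 0.00403 for Ms4a7.

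The largest falls were in genes of different functions. Otud1 (chr2:19657752-19660583), an enzyme that removes ubiquitin, was at 143, 150, 113 and 117 CPM with ATV:ISO, at 108, 146, 154 and 170 CPM with 4D9 and at 67.5, 59.9, 48.8 and 37.5 CPM with ATV:4D9. It fell by 1.32 on the log2 scale against ATV:ISO (-1.32 ± 0.17, adjusted p = 0.000136) and by 1.47 against 4D9 (adjusted p = 3.12e-05), without overlap. Il4i1, an amino acid oxidase, was at 168, 162, 130 and 113 CPM with ATV:ISO and at 78.6, 62.0, 56.5 and 51.2 CPM with ATV:4D9 (-1.23 ± 0.16, adjusted p = 0.000169). Lpl (chr8:68880491-68907448), the lipase that frees fatty acids from lipoproteins, was at 1298, 1173, 1221 and 1247 CPM with ATV:ISO, at 1001, 1240, 1112 and 1118 CPM with 4D9 and at 879, 640, 611 and 594 CPM with ATV:4D9. It fell by 0.86 against ATV:ISO (-0.86 ± 0.12, adjusted p = 0.000258) and by 0.72 against 4D9. The sulfatase gene Sulf2 (-0.92), the urokinase gene Plau (-0.89), Adssl1 (-0.79), the sterol synthesis gene Hmgcs1 (-0.78), the potassium channel gene Kcnj2 (-0.73), the chemokine gene Ccl3 (-0.63) and the secreted kinase gene Fam20c (-0.62) completed the list, with adjusted p up to 0.0384 for Kcnj2. The call for Kcnj2 was lost without any of 6 single mice and with limma-voom (adjusted p = 0.0556), and that for Fam20c without the ATV:4D9 mouse of pool 3 (adjusted p = 0.0516). Against 4D9 the named falls included Ccl6 (-1.16, adjusted p = 0.0149), Gem, a small GTPase (-0.94, adjusted p = 0.0149), and Siglecf, a sialic acid receptor (-0.64, adjusted p = 0.00319). Ccl6 and Gem lost their call without the ATV:4D9 mouse of pool 2 (adjusted p of 0.076 and 0.088) or of pool 3 (0.0663 and 0.0706), and Ccl6 also without that of pool 4 (0.0655).

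**Figure D4:**
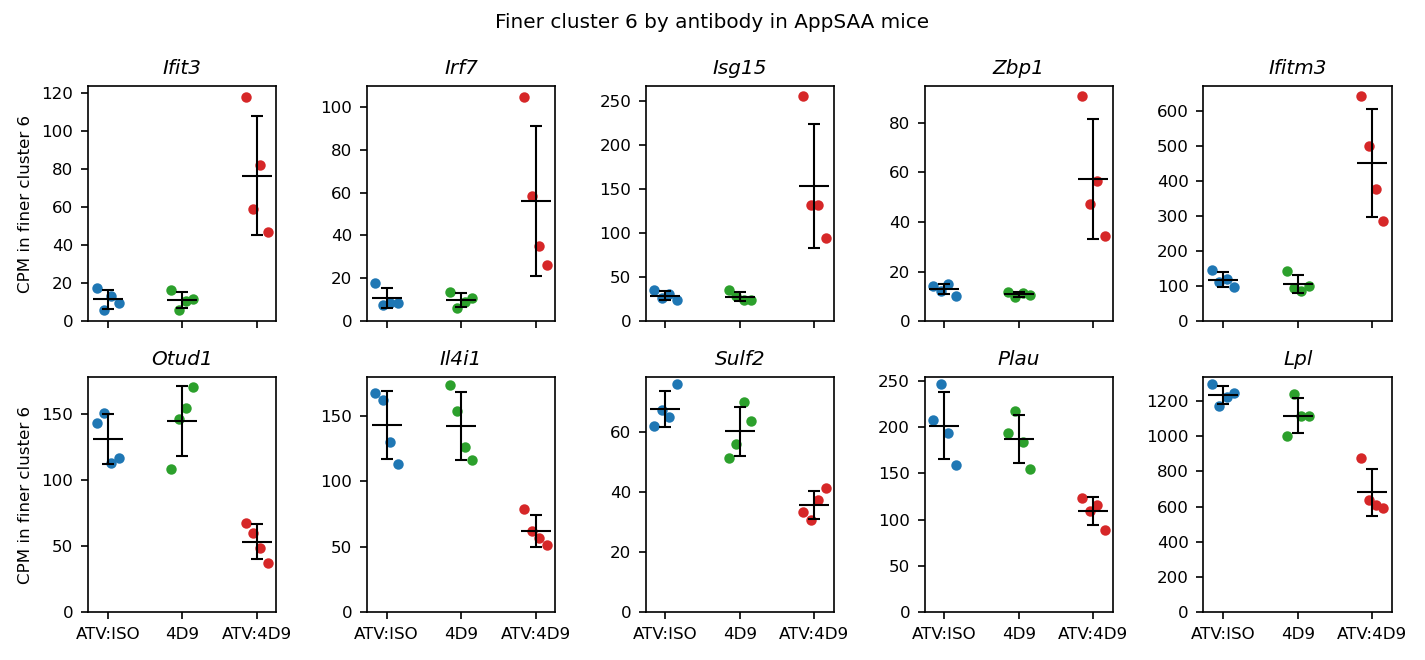
CPM in finer cluster 6 of 10 named genes in the 3 AppSAA groups (ATV:ISO, unmodified 4D9, ATV:4D9); points are mice and the bar and whiskers give the mean and SD of 4. Isg15 lies at 94.3 to 255 CPM with ATV:4D9 and at 23.5 to 35.9 CPM in the other mice, and Lpl lies at 594 to 879 CPM against 1001 to 1298.

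Genes of cholesterol and lipid handling moved in both directions. Of 19 genes of cholesterol synthesis, 5 fell with ATV:4D9 against ATV:ISO and 0 rose (median -0.55). Of all genes tested, 0.443% fell and 1.14% rose. Among the 5 were the synthesis enzymes Hmgcs1 and Sc5d, the regulator Insig1, and Srebf2, the transcription factor of sterol synthesis (-0.49, adjusted p = 0.045). With the pool block 8 fell. There were 3 without the ATV:4D9 mouse of pool 1 or 2, 1 without that of pool 3 or 4, and 1 or 2 without the ATV:ISO mouse of pool 2 or 4, while Hmgcs1 passed in each of these fits. Srebf2 passed only when the ATV:ISO mouse of pool 1 was the one left out, and had adjusted p between 0.0785 and 0.197 without each of the other 7. Sc5d lost its call without each ATV:4D9 mouse in turn and without the ATV:ISO mouse of pool 2 or 4 (adjusted p of 0.0513 to 0.143), and Insig1 without the ATV:4D9 mouse of pool 3 (0.0513) or 4 (0.103) or the ATV:ISO mouse of pool 2 (0.0542). Against 4D9, 0 of these 19 passed by edgeR's test (9 at an unadjusted p under 0.05, median -0.36) and 0 by limma-voom. In that comparison 1 fell by DESeq2, 2 without a filter on low counts and 4 with the pool block. Hmgcs1 ran from 55.8 to 69.8 CPM with ATV:ISO, 41.3 to 49.1 with 4D9 and 33.9 to 38.5 with ATV:4D9, without overlap among the groups. Of 22 genes of lipid transport and efflux, 4 rose against ATV:ISO, and these were Apoe, Apoc1 (1.25, adjusted p = 0.0217), the cholesterol exporter gene Abca1 (0.76, adjusted p = 0.028) and Pltp (1.33, adjusted p = 0.0292). In the same list 2 fell, among them Lpl. Apoe was at 29167, 26832, 30829 and 24619 CPM with ATV:ISO and at 40356, 36291, 48826 and 35914 CPM with ATV:4D9, a rise of 0.53 ± 0.12 (adjusted p = 0.0185) without overlap. Against 4D9, in edgeR's fit without the pool block, its log2 fold change was 0.41 and did not pass (adjusted p = 0.116), nor did Apoc1 (0.75, adjusted p = 0.309). In that comparison 2 genes of the list rose, Abca1 (0.78, adjusted p = 0.0265) and Pltp (1.44, adjusted p = 0.0214), and 1 fell, Lpl. Several of the calls against ATV:ISO depended on single mice in the fit without the pool block. Apoe lost its call without the ATV:4D9 mouse of pool 3 (adjusted p = 0.0995) or the ATV:ISO mouse of pool 2 (0.0649) or 4 (0.0734). Abca1 lost it without the ATV:4D9 mouse of pool 2, 3 or 4 or the ATV:ISO mouse of pool 1 or 2 (adjusted p up to 0.167), and Apoc1 without the ATV:4D9 mouse of pool 2 or 3 or the ATV:ISO mouse of pool 2 or 3 (up to 0.243). Pltp lost it without the ATV:4D9 mouse of pool 3 or 4 or the ATV:ISO mouse of pool 2, 3 or 4 (up to 0.34). With cells of 1000 to 25000 UMIs, Apoc1 (0.76, adjusted p = 0.133), Pltp (adjusted p = 0.0908) and Srebf2 (adjusted p = 0.175) did not pass, nor did Srebf2 with limma-voom (adjusted p = 0.072). With the pool block and all mice, edgeR's adjusted p were 1.62e-06 for Apoe, 1.71e-05 for Abca1, 0.00423 for Apoc1 and 0.0103 for Pltp. They were 0.0093 for Srebf2, 0.00561 for Sc5d and 0.00167 for Insig1.

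The lists that describe plaque-associated and resting microglia were also counted between the antibody groups, beside the 1.14% of all genes that rose and the 0.443% that fell. Of 20 later plaque-associated genes, Gpnmb rose and Ank, a phosphate transporter, fell with ATV:4D9 against ATV:ISO (-0.55, adjusted p = 0.00493). Gpnmb was at 671, 721, 860 and 408 CPM with ATV:ISO, at 492, 786, 749 and 642 CPM with 4D9 and at 1099, 1091, 1818 and 925 CPM with ATV:4D9, so each mouse given ATV:4D9 was above each other mouse, and the rise was 0.89 ± 0.21 (adjusted p = 0.0365). This call was lost without the ATV:4D9 mouse of pool 1 (0.0531), 2 (0.0652) or 3 (0.193) or the ATV:ISO mouse of pool 1 (0.0778), 2 (0.0783) or 4 (0.103), as adjusted p, with the direction kept. With the pool block and all mice, edgeR's adjusted p for Gpnmb was 0.000156. In edgeR's fit without the pool block, Spp1 had a log2 fold change of 0.65 with an adjusted p of 0.349. Cst7 had a log2 fold change of 0.17 with an adjusted p of 0.712 in that fit, and Trem2 one of 0.04. More genes passed with the pool block, so a missing call in the fit without it does not show that a gene was unchanged. Of 25 core genes, Apoe rose and Lpl and Ccl6 fell. Against 4D9, Gpnmb rose (0.88, adjusted p = 0.0409) and 2 later genes fell, among them Ank (-0.48, adjusted p = 0.0149), while of the core genes 0 rose and Lpl and Ccl6 fell. The call for Ccl6 against ATV:ISO (adjusted p = 0.0337) was lost with DESeq2 (0.111) and without the ATV:4D9 mouse of pool 2, 3 or 4 or the ATV:ISO mouse of pool 1 or 3 (up to 0.136). With the pool block and all mice, edgeR's adjusted p for Ccl6 was 2.26e-05. Of 20 homeostatic genes 0 passed by edgeR's test (2 at an unadjusted p under 0.05), 0 by DESeq2 and 0 by limma-voom. With the pool block 1 fell and 6 were at an unadjusted p under 0.05 by edgeR, and without a filter on low counts 1 fell. By edgeR without the pool block, the values for P2ry12 and Tmem119 were -0.47 (adjusted p = 0.137) and -0.06 (adjusted p = 0.976). Among complement and phagocytosis genes, 2 of 21 rose, the antibody receptor genes Fcgr1 (0.68, adjusted p = 0.00519) and Fcgr4 (0.91). Of 10 class II antigen presentation genes 0 passed by edgeR's test (4 at an unadjusted p under 0.05, median -0.34), 0 by DESeq2 and 0 by limma-voom, while 2 fell with the pool block.

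The difference with ATV:4D9 was then compared between finer clusters 6 and 3 in the same mice, by an interaction term in edgeR with the mouse as a block. Of 11330 genes, 95 (0.838%) responded differently to ATV:4D9 against ATV:ISO in the clusters, 66 with the more positive change in finer cluster 6 and 29 with the more negative one. Of these 95, 27 were also called within finer cluster 6, and 23 rose there and by more than in finer cluster 3. Against 4D9 there were 53 genes (0.468%), and for 4D9 against ATV:ISO 0 (0%) by edgeR and 0 by DESeq2, with 424 and 152 genes at an unadjusted p under 0.05. Leaving out the mice of 1 pool lowered the 95 to 31 (pool 2), 57 (pool 4), 58 (pool 3) and 76 (pool 1), and the 53 to 21 (pool 2), 33 (pool 3), 35 (pool 1) and 42 (pool 4). The interferon genes given next had been chosen for the size of their rise in finer cluster 6 in the same mice, which favours a larger rise there, so their values are a description and support nothing. Isg15 rose by 0.99 ± 0.08 more in finer cluster 6 than in finer cluster 3 on the log2 scale (adjusted p = 4.34e-10), and in finer cluster 3 it was at 28.3 ± 3.45 CPM with ATV:ISO and 75.4 ± 34.3 CPM with ATV:4D9 (SD, n = 4). Ifit3 rose by 1.33 ± 0.18 more (adjusted p = 3.59e-05), from 14.3 ± 0.864 to 37.0 ± 15.5 CPM in finer cluster 3. Ifitm3 rose by 0.71 ± 0.08 more (adjusted p = 1.57e-07), from 134 ± 30.0 to 308 ± 105 CPM in finer cluster 3. With ATV:ISO the levels of these 3 genes in the mice overlapped between the clusters.

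Among the other named risen genes, chosen in the same way, Ifi207 did not pass (0.13, adjusted p = 0.819). Without the mice of pool 2, Irf7 (adjusted p = 0.102), Zbp1 (0.0749) and Ifi204 (0.402) no longer passed, and Ifi204 did not pass without pool 3 (0.27) or with DESeq2 (0.205) either. Against 4D9, Irf7 and Oasl2 did not pass, while against ATV:ISO Isg15, Ifit3, Ifitm3, Ifit2, Oasl2 and Rtp4 passed without each pool in turn. Class II genes differed the other way, with Cd74 at -0.57 (adjusted p = 2.52e-06), H2-Aa at -0.44 (adjusted p = 0.0148) and H2-Eb1 at -0.44 (adjusted p = 0.00951), and also H2-Ab1 at -0.45 (adjusted p = 0.000847). These 4 did not pass within finer cluster 6 in the fit without the pool block, while with it 2 of 10 class II genes fell. The difference held without each pool for Cd74 and H2-Ab1, and was lost without pool 2 for H2-Aa (adjusted p = 0.347) and for H2-Eb1 (0.236), the latter also without pool 4 (0.0651). With DESeq2 H2-Aa did not pass either (adjusted p = 0.143). Gem differed by -0.78 ± 0.12 against 4D9 (adjusted p = 0.000507), with 70.1 ± 6.71 CPM under 4D9 and 65.0 ± 12.6 CPM under ATV:4D9 in finer cluster 3. For Lpl, which went from 670 ± 20.2 to 337 ± 19.6 CPM in finer cluster 3, the clusters' changes did not differ by this test. Rises were compared between finer clusters 6 and 3 only. The highest AppSAA mouse for Isg15 stood at 229 CPM in finer cluster 6 and 125 in 3. In the other finer clusters the highest mouse was at 92.7 CPM in 0, 165 in 2, 307 in 8, 349 in 4, 458 in 1, 484 in 7 and 2102 in 5. Finer cluster 5 also had the highest median of Isg15, at 1091 CPM against 32.7 in finer cluster 6 and 32.3 in 3. These medians are over AppSAA mice of all antibody groups. How cells were divided among finer clusters 3, 5 and 6 could therefore enter these comparisons, and its part was not tested.

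**Figure D5:**
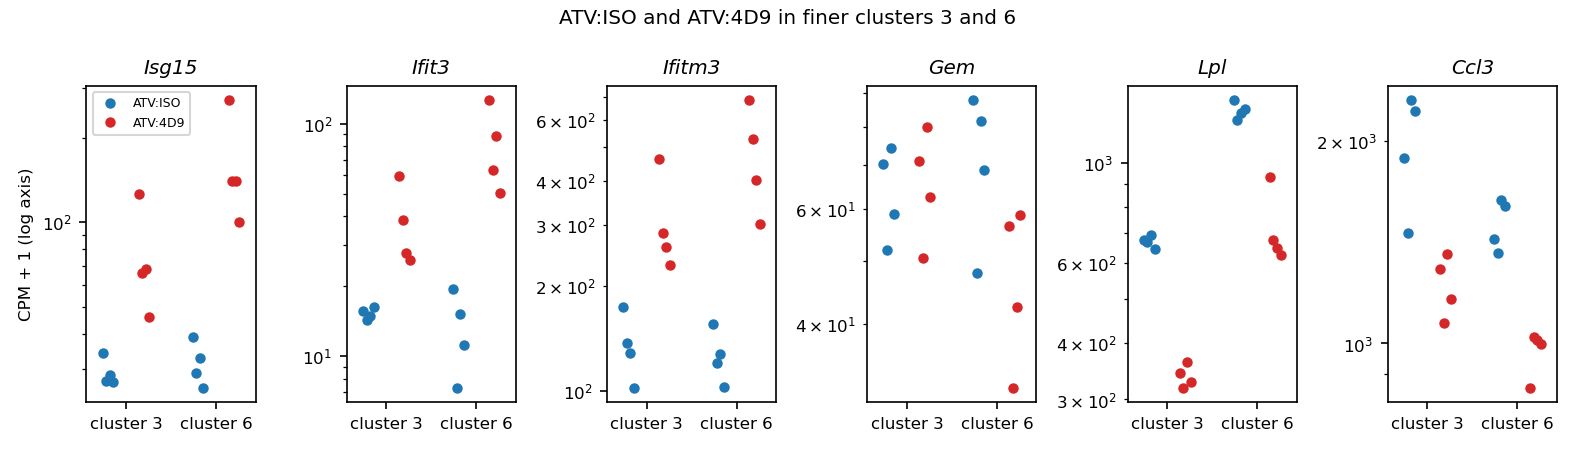
CPM + 1 on a log axis, with its own range for each gene, in finer clusters 3 and 6 of AppSAA mice given ATV:ISO (blue) or ATV:4D9 (red), with 1 point a mouse. Isg15, Ifit3 and Ifitm3 rise further in finer cluster 6 than in 3, and the other finer clusters are not shown. The values of Gem are lower with ATV:4D9 in finer cluster 6 than in 3, and Lpl is lower with ATV:4D9 in both clusters.

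The promoters of the genes that distinguish finer cluster 6 from finer cluster 3 were searched for letters of other factors on both strands. Of the 14 genes named as higher, 10 matched, with 14 promoters, of which 0 held CACGTG, the E-box, and 0 held the M-box, which is CACGTG preceded by T and followed by A and so lies within E-box matches. These motifs were in 7.15% and 0.974% of all promoters. TGANTCA, the AP-1 motif, was in 2 of the 14 (Cst7 and Gpnmb) and in 7.81% of all, and the ISRE core in 1 (Spp1). Of the 12 lowest genes, 7 matched with 9 promoters, of which 2 held CACGTG (P2ry12 and Siglech), 1 the M-box (Siglech) and 1 TGANTCA (Adgrg1). The spacing of a CArG box was in 11 of the 14, 7 of the 9 and 73.3% of all promoters. These counts are small and the windows short, and nothing on a factor's binding follows from them.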

How the data were processed

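Processing of the reads was done by the authors: per the labels and the methods, reads were aligned to mm10 in Cell Ranger 6.1.1, CellPlex tags gave the mouse of each cell, and Seurat gave the clusters. The filters on cells and genes are not given in the sources used here. Deposited were raw UMI counts, not normalized, and an annotation with the mitochondrial percent and cluster of each cell. Every deposited cell was kept. The members, gene lists and tests were chosen with earlier results of these data known.

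Counts were summed over the cells of a cluster in a mouse (minimum 20 cells). The sums were fitted by quasi-likelihood in edgeR 4.0.16 (R 4.3.3) after filterByExpr and TMM scaling. Clusters were compared with the mouse as a block, and a call needed a 2-fold difference with 1 sign in every mouse (pseudocount 1 CPM). Groups were compared within finer cluster 6 in a fit of 12 mice without the pool, called at a Benjamini-Hochberg adjusted p of 0.05. Shares and per-cell medians were tested by exact permutation (scipy 1.17.1). Named were Apoe, Cst7 and the 12 largest differences in each direction between clusters, the 10 largest rises and falls without overlap between groups, and up to 5 members of each list, with a mean of at least 50 CPM in the higher arm. Gm, Rik and sex-linked genes were passed over, and some genes that met the rule are not reported here. Members of a list that are named to account for its calls, and Fcgr4, Ms4a7 and the marker genes of other cells, were chosen after their values were seen.

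The pools pair the mice, as each holds 1 mouse of every group per the labels: over 2397 genes, deviations of finer cluster 6 from group means correlated in all 12 pairs of a pool (0.227 to 0.730, median 0.541), against a median of -0.276 between pools. DESeq2 1.42.0 and limma 3.58.1 (voom) were alternatives. Whether mice of a group came from separate litters is not stated. Gene positions are from GENCODE (GRCm38) and promoters from RefSeq (GRCm38.p6). The fits were tested on simulated data.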

Additional observations from a re-analysis of the deposited data

Results flagged for a closer look

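Single mice stood far from the other 3 of their group in 4 results, by Dixon's 95% limit. These were the share of finer cluster 6 among finer clusters 3 and 6 in the AppSAA mouse of pool 4 given ATV:ISO (16.9%), and in mice of pool 1 the level of Irf7 with ATV:ISO (17.6 CPM), of Lpl with ATV:4D9 (879 CPM) and of Ccl3 with ATV:4D9 (809 CPM). The 3 gene levels are among 69 groups of 4 examined over the named genes, the share was examined separately, and chance passes about 1 group in 20.

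In 27 instances the response of a gene differed between finer clusters 6 and 3 by the interaction test. Against ATV:ISO, the excess of the rise in finer cluster 6 on the log2 scale was 1.33 for Ifit3, 0.99 for Isg15, 0.90 for Irf7, 0.83 for Ifit2, 0.82 for Oasl2, 0.79 for Zbp1, 0.75 for Rtp4, 0.71 for Ifitm3, 0.42 for Ifi204 and 0.33 for Bst2, and the difference was -0.57 for Cd74, -0.44 for H2-Aa, -0.44 for H2-Eb1 and -0.45 for H2-Ab1. Against 4D9 it was 1.18 for Ifit3, 0.95 for Isg15, 0.78 for Ifitm3, 0.75 for Zbp1, 0.75 for Rtp4, 0.69 for Ifit2, 0.48 for Ifi204, 0.29 for Bst2, -0.48 for H2-Ab1, -0.56 for H2-Aa, -0.59 for Cd74, -0.61 for H2-Eb1 and -0.78 for Gem. Both comparisons use the ATV:4D9 mice. Many of these genes had been chosen for the size of their change in finer cluster 6 in the same mice. That choice favours a larger change there, so these values are a description. Against 4D9 the calls lost when the mice of 1 pool were left out were Ifi204 (pool 1, 2 or 3), Zbp1 (pool 1, 2 or 3), Ifit2 (pool 2 or 3), Rtp4 (pool 4) and Bst2 (pool 2). Ifi204 also did not pass against 4D9 with DESeq2 (adjusted p = 0.117).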

How the results depend on the processing

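No result reversed under the alternatives run. Thinning to 5000 UMIs left 133 genes higher and 58 lower than in finer cluster 3, of 8889 measured in place of 10792. Without a filter on low counts, 81 genes fell with ATV:4D9 against ATV:ISO and 52 against 4D9, 1 rose and 1 fell with 4D9, and 170, 20 and 127 genes had an interaction (ATV:4D9 against ATV:ISO, 4D9 against ATV:ISO, ATV:4D9 against 4D9). DESeq2 gave 34 interactions for ATV:4D9 against 4D9. With the pool as a replicate block, 306 genes rose and 168 fell against ATV:ISO, and 254 rose and 130 fell against 4D9. For shares the block of pools allows no p under 0.125, and none had passed without it, so no call could change. The pool block ended no call of a single named gene. The cause of these shifts was not tested. Leaving out mice gave, against all other cells, 591 to 648 higher and 550 to 603 lower genes, and against finer cluster 3 228 to 242 and 97 to 120. Within finer cluster 6 it gave 79 to 130 risen and 23 to 46 fallen against ATV:ISO, 84 to 100 and 19 to 28 against 4D9, 0 to 0 for 4D9, and 31 to 76, 0 to 1 and 21 to 42 interactions. Share differences (in the order of percentage points of all cells, then of finer clusters 3 and 6) lay between -5.93 and -4.66, and -4.34 and -1.26, for ATV:4D9 against ATV:ISO. They lay between -7.03 and -6.25, and -7.32 and -4.40, against 4D9, and between 0.746 and 2.01, and 1.45 and 3.82, for 4D9. For AppSAA against WT they lay between 7.03 and 8.30, and 7.50 and 14.1, under ATV:ISO, and 2.23 and 2.92, and 13.7 and 16.6, under ATV:4D9. For ATV:4D9 in WT they lay between -0.186 and -0.0374, and -10.4 and -3.83. Per cell, finer cluster 6 minus 3 lay between 5025 and 5346 UMIs, -98.4 and -89.5 genes, and 0.173 and 0.275 mitochondrial percent. Over the genes with the largest differences between clusters or groups, 1207 values kept direction and call, 4 moved in size and 13 lost their call (Kcnj2, Gem, Ccl6 and Fam20c). This tally leaves out list members and interactions.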
